A study of Mus musculus with 12 samples.

Results

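The genes that encode the proteins of the cytosolic ribosome were followed in RNA and in ribosome footprints of juvenile mouse testes. They were found by their symbols (Rpl, Rps or Rplp, a number, and at most a letter and a closing x, l or y), which gave 80 of the 20620 genes in the count table, 50 of the large and 30 of the small subunit. Of all 20620 genes, 18024 had at least 1 count. The samples were whole testes of C57BL/6 mice at postnatal day 16, homogenised in cycloheximide, which holds ribosomes on their mRNA. They were either Mael+/-, the control with 1 intact allele of Maelstrom, or Mael-/-, which lacks this protein of the piRNA pathway that represses transposons in germ cells. There were 3 libraries for every genotype in either assay, 12 in all, and the RNA and the footprints came from aliquots of the same 6 extracts. Whole testis mixes spermatogonia, spermatocytes and somatic cells, so that a lower level from fewer cells of a type and one from less RNA per cell cannot be told apart.

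A ribosome joins a large and a small subunit, in which ribosomal RNA does the chemistry and many small proteins hold, shape and regulate it. Most of these proteins are made from very abundant, short mRNAs that open with a run of pyrimidines, the terminal oligopyrimidine tract, through which growth signals control their translation. Ribosomal protein mRNAs have also been copied back into the genome many times as processed pseudogenes, which lack introns and mostly make no protein. Several main forms, Rpl10, Rpl39, Rpl36a and Rps4x, lie on the X chromosome, which is silenced during meiosis in males. Rpl10l and Rpl39l, autosomal copies of Rpl10 and Rpl39, are known to serve the ribosomes of male germ cells.

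A footprint is about 30 bases long, and where those bases recur in the genome, its sequence alone does not name its gene. The first aligned 30-base windows that were found once for a paralog but also elsewhere for its main form are shown here, with bases that differ between the pair in capitals. They come from the spliced coding sequences of RefSeq on GRCm38.p6 (mm10), and begin at coding base 1 for the first pairs and at base 96 for Rpl36a and Rpl36al.
Rpl10: atgggCcgCcgCccCgcCcgGtgttaccgg
Rpl10l: atgggTcgTcgTccGgcTcgCtgttaccgg
Rpl39: atgTcttctcacaagacTttcCgAatcaag
Rpl39l: atgGcttctcacaagacCttcAgGatcaag
Rpl36a: TTtgtatgcccaGggaaagcggcgTtacga
Rpl36al: CCtgtatgcccaAggaaagcggcgCtacga
The Rpl10 window occurred at 4 other places of the genome, the Rpl39 window at 4 and the Rpl36a window at 1, whereas the 3 paralog windows occurred at 0. The windows differed at 6, 4 and 4 bases. Over the whole coding sequence, Rpl10l shared 84.8% of 645 bases with Rpl10, Rpl39l shared 85.3% of 156 bases with Rpl39, and Rpl36al shared 87.9% of 321 bases with Rpl36a. The genes lie at chrX:74270816-74273135 (Rpl10, plus strand), chr12:66283379-66284401 (Rpl10l, minus strand), chrX:37082518-37085222 (Rpl39, minus strand), chr16:10170228-10174911 (Rpl39l, plus strand), chrX:134585654-134588062 (Rpl36a, plus strand) and chr12:69182734-69184067 (Rpl36al, minus strand).

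Start sites were read for 60 of the 80 genes, those with a RefSeq promoter entry. A run of at least 8 consecutive C or T bases on the coding strand, beginning within 5 bases of the annotated start on either side, was found in 19 of them (31.7%), against 5.67% of 16342 genes and 2.94% of 68 mitochondrial ribosomal protein genes. Rps6 and Rpl28, the proteins of the small and large subunit that the study stained, held such a run. The germ cell paralogs Rpl10l and Rpl39l did not, and neither did their main forms Rpl10 (longest run 1 base) and Rpl39 (5 bases). The search read a single annotated start per gene, so a run at a start used elsewhere was missed. The share found is therefore no measure of how many of these mRNAs carry the tract, and a gene without a run here may still have it. The windows below span 10 bases before and 20 bases from the start, with the run in capitals.
Rps6: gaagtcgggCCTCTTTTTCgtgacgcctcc
Rpl28: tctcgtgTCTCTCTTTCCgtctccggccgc
Rpl39l: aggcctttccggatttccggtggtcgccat
Rpl10l: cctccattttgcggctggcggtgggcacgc
The start-site windows lie at chr4:86857348-86857377 (Rps6, minus strand), chr7:4792955-4792984 (Rpl28, plus strand), chr16:10170218-10170247 (Rpl39l, plus strand) and chr12:66284382-66284411 (Rpl10l, minus strand). The longest run within this search measured 10 bases in Rps6, 11 in Rpl28, 5 in Rpl39l and 4 in Rpl10l. Bases of a run that lay more than 5 bases before the start were not counted.

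Gene counts totalled 13697267 to 27462358 in the RNA libraries and 7609932 to 13233565 in the footprint libraries. The 80 genes took 2.19% to 2.76% of the RNA counts and 0.527% to 0.628% of the footprint counts, so their share was several times smaller among footprints in every extract. The deleted gene matched the labels: Mael had 3800 to 5045 RNA counts in the Mael+/- libraries and 0 to 2 in the Mael-/- libraries. The labelled tissue was checked against marker lists, and every Sertoli cell, spermatogonial and Leydig cell marker was present in the RNA of every library. One extract stood apart. The summed level of 14 pachytene spermatocyte markers was 1013 CPM (counts scaled to a common library size) in the RNA of Mael+/- extract 1, against 349 and 382 in the other Mael+/- extracts and 285 to 325 in the Mael-/- extracts. In footprints the corresponding sums were 1205, 356, 442 and 313 to 360. Of these markers, Pgk2 was at 0 in at least 1 library and reached at most 1.34 CPM in RNA.

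In RNA, most ribosomal protein genes were among the abundant messages of the testis. Their median level was 269 CPM, and 67 of the 80 genes exceeded 100 CPM. Per length of mRNA, the highest included Rplp1, an acidic protein of the P stalk that recruits translation factors, at 1953 CPM per kilobase, Rps14 at 1015, Rps12 at 1012 and Rpl32 at 979. At the other end, 5 genes were under 2 CPM. They were Rpl3l, a muscle paralog of Rpl3, at 1.62 CPM, and 4 main forms, Rps27 at 1.30, Rpl34 at 1.13, Rpl30 at 0.862 and Rpl26 at 0.0146.

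These 4 main forms differed from one another among footprints. Rpl26, which sits by the exit tunnel of the large subunit, had 2 RNA counts in all 6 libraries together and 530 to 757 footprint counts in each library. Rpl30 had 15 to 25 RNA counts and 244 to 423 footprint counts per library. Rps27 and Rpl34 had 180 and 157 RNA counts in all and no footprint in any library, which allows at most 3 counts per library, 0.394 CPM at the lowest depth. Rpl26 and Rpl30 thus had more footprint than RNA counts in every extract, Rps27 and Rpl34 the reverse, and how these counts arose was not tested.

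Among footprints, the same genes spread far more widely. Their median level was 13.9 CPM, and 19 genes stayed under 1 CPM, of which 16 exceeded 100 CPM in RNA. Per length of coding sequence, the highest included Rpl8, a protein of the core of the large subunit, at 828 CPM per kilobase, Rpl4 at 612, Rps3, which lines the mRNA entry channel, at 541 and Rps21 at 526. Rps29, a zinc-binding protein of the small subunit head, showed the widest gap, with 289 to 393 CPM in the 6 RNA libraries and 1 count in the 6 footprint libraries together. Rps6 had 192 to 255 CPM in RNA and 4 to 11 counts in footprints, and Rpl28 had 142 to 192 CPM and 3 to 13 counts. In no library did the footprint level of these genes approach their RNA level.

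**Figure D1:**
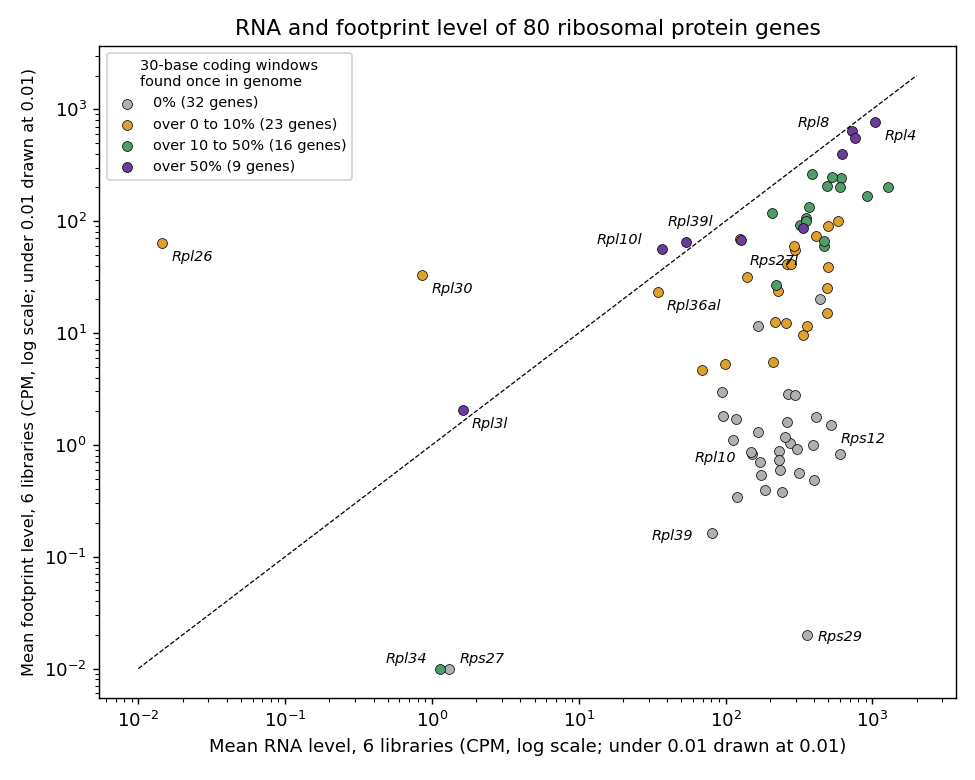
Mean level in the 6 RNA libraries (x axis, CPM, log scale) and in the 6 footprint libraries (y axis, CPM, log scale) for the 80 ribosomal protein genes, coloured by the share of their 30-base coding windows found once in the genome. The dashed line marks equal CPM. Genes with more than 50% of windows found once lie near the line, with Rpl22 the lowest of them against it, and most genes with 0% lie far below it.

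The comparison of footprints with RNA asked how many ribosome-protected reads each gene had for its RNA. Both assays were scaled together, so a log2 difference of 0 means the same level in both after this scaling, which is close to but not the same as an equal share of counts. Of the 80 genes, 61 passed the filter on low counts in both assays. In edgeR's quasi-likelihood test 58 of the 61 were called at an adjusted p under 0.05, 56 lower and 2 higher in footprints, where 70.9% of all 13448 genes tested were called, 36.4% lower and 34.5% higher. The median log2 difference was -2.59 for the 61 genes and -0.01 for all genes. It was -2.62 in Mael+/- alone and -2.57 in Mael-/- alone, with 58 called in each, where 58.1% and 58.6% of all genes were called. The 18 genes that missed the footprint filter had the fewest footprints, and without a filter 78 of all 80 genes were called, 74 of them lower.

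The 5 lowest of the 61 were Rpl17 at -8.52, Rps12 at -8.38, Rpl23a at -7.94, Rpl19 at -7.82 and Rps27a at -7.66. Rps27a encodes a ribosomal protein fused to ubiquitin, and Rpl17, Rpl19 and Rpl23a surround the exit tunnel. The 5 highest were Rpl30 at 5.37, Rpl10l at 0.68, Rpl3l at 0.42, Rpl39l at 0.33 and Rpl8 at -0.10. Of these, Rpl30 (SE 0.15, adjusted p = 1.08e-13, edgeR) and Rpl10l (SE 0.17, adjusted p = 0.00203) were called. Rpl39l (SE 0.14, adjusted p = 0.0509) and Rpl3l (SE 0.22, adjusted p = 0.107) were not, but both were with the extract as a pairing block in edgeR (adjusted p = 0.000146 and 0.0233). Rpl39l was also called without Mael+/- RNA replicate 1, Mael+/- footprint replicate 2 or 3, or Mael-/- footprint replicate 2 (adjusted p from 0.0150 to 0.0466, edgeR). Apart from Rpl30, whose RNA was nearly absent, the 3 genes above 0 were all paralogs. The paralogs Rps27l at -0.82 and Rpl36al at -0.48 were called lower (adjusted p = 1.53e-06 and 0.00187, edgeR).

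The ratio followed how much of a coding sequence could be told apart from the rest of the genome. All 80 genes matched a RefSeq coding transcript. The median gene had 3.44% of its 30-base coding windows at a single place, against 98.3% over 20409 genes of the table and 97.9% for the mitochondrial ribosomal protein genes. In 32 of the 80 no window was found once, and in 9 more than 50% were. For the 75-base windows of the mRNA, the length of an RNA read, the median was 44.8% for the ribosomal protein genes and 99.2% for all genes. Among the 61 genes Spearman's rho between the share of windows found once and the log2 difference was 0.90 and Pearson's r was 0.61. This is a description across genes that share the same 12 libraries, which are not independent replicates.

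The medians ran in steps, while the ranges of neighbouring steps overlapped. The 15 tested genes with no window found once had a median log2 difference of -6.64, between -8.52 and -3.77. The 22 genes with a share over 0 and up to 10% had a median of -2.94, between -5.18 and 5.37. The 15 genes over 10% and up to 50% had one of -1.64, between -2.94 and -0.47. The 7 genes over 50% and up to 90% had a median of -0.37, between -1.89 and 0.68, and Rpl3l, over 90%, was at 0.42. Other genes with equally little unique sequence were also low. The median was -3.24 for 31 other genes with no window found once, -2.02 for 90 others up to 10%, -0.97 for 474 others up to 50%, -0.25 for 1037 others up to 90%, and 0.04 for 11702 others above 90%.

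**Figure D2:**
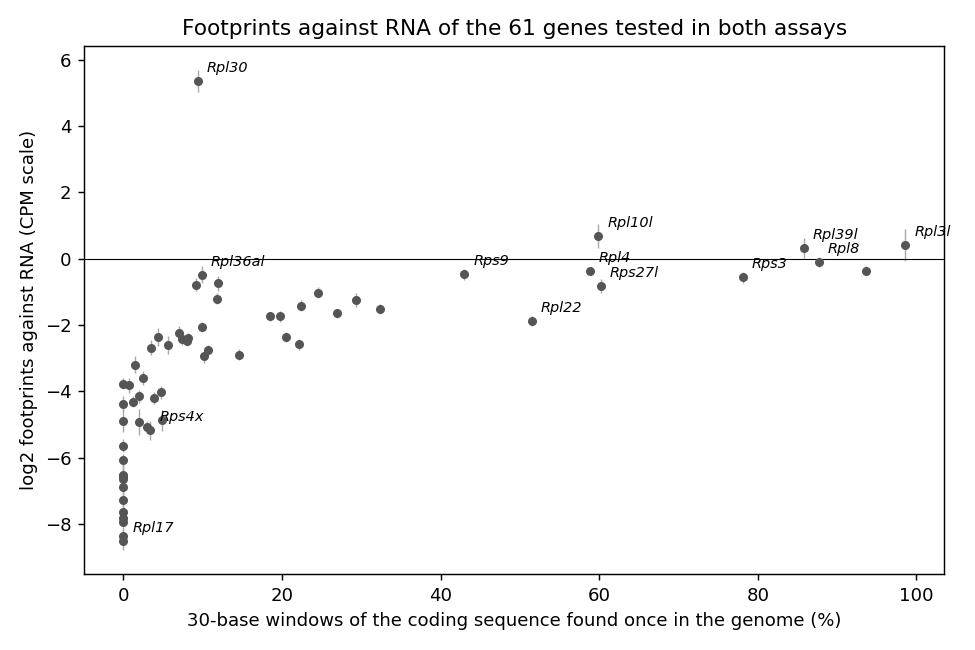
Share of the 30-base coding windows found once in the genome (x axis, %) against the log2 difference of footprints and RNA on the CPM scale (y axis, bars: 95% interval) for the 61 genes tested in both assays. Genes without such windows lie between -8.52 and -3.77, genes over 50% lie between -1.89 and 0.68, and Rpl30 at 5.37 stands apart.

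The 9 genes with more than 50% of windows found once carried 45.1% to 45.9% of the footprint counts of the 80 genes but 14.5% to 14.8% of their RNA counts. They included Rpl3l, Rpl8, Rpl39l, Rps3, Rps27l, Rpl10l, Rpl4 and Rpl22. Of the 9, 5 were called lower in footprints and 1 higher, with a median log2 difference of -0.37, where 36.4% of all 13448 genes tested were called lower and 34.5% higher. Rpl4 had 959 to 1155 CPM in RNA and 706 to 845 in footprints (log2 difference -0.37), and Rpl8 had 647 to 797 and 557 to 725 (-0.10). The ranges of the 2 assays overlapped for Rpl8 and not for Rpl4. When footprints were divided by coding length and RNA by mRNA length, the log2 ratio relative to the median gene was -1.09 for Rpl4, -0.84 for Rpl8 and -0.10 for Rps3, and it was 1.81 for Rpl39l and 0.46 for Rpl10l.

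By place in the ribosome, all 24 small subunit genes tested were called lower (median -2.30), as were 32 of 37 large subunit genes (median -2.90). Of all 13448 genes tested, 36.4% were called lower. For the P stalk, 3 of its 4 genes (Rplp0, Rplp1, Rplp2) were tested and called, between -2.58 and -0.74, and Rpl12, which anchors the stalk, had 51 footprint counts in all. Rpl11, which joins the 5S RNA particle, was at -6.51, and its partner Rpl5 did not pass the footprint filter, with 52 counts against 43106 in RNA. Of 7 exit tunnel genes listed, 4 were tested (Rpl17, Rpl19, Rpl23a, Rpl35), and all 4 were called lower, with a median of -7.88. Rpl26, also of this site, missed the RNA filter and went the other way, with 2 RNA counts and 3764 footprint counts in all. No window was found once in Rpl17, Rpl19, Rpl23a, Rpl11, Rpl5 or Rpl12, and 2.04% were in Rpl35. Place in the ribosome and share of unique windows cannot be told apart for these genes.

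Ribosome genes whose symbols the rule misses were set beside them. Gnb2l1, the scaffold RACK1 of the small subunit, had 92.9% of windows found once and a log2 difference of -0.13 (SE 0.07, adjusted p = 0.123, edgeR). Rps3a1 (4.70%) was at -3.45 and Rpl22l1 (7.94%) at -0.96, both called, whereas Rpsa with 31 footprint counts and Fau with 54 missed the filter. Among other mRNAs with a terminal oligopyrimidine tract, 14 of 17 were called lower and 3 higher, with a median of -0.84. In this list, Eef1a1 (11.03% of windows found once) was at -2.43, Tpt1 (0%) at -3.66 and Eef2 (69.9%) at -0.29. Others did not follow the share of unique windows, with Naca (91.4%) at -2.09 and Hnrnpa1 (10.8%) at 1.52. The 77 mitochondrial ribosomal protein genes, of which 76 were tested, had a median of 0.07, with 29 called lower and 36 higher. For both lists the shares over all 13448 genes tested were 36.4% called lower and 34.5% called higher.

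The germ cell paralogs were then set against their main forms. Rpl10l RNA measured 64.7, 31.97 and 31.6 CPM in the Mael+/- libraries and 27.9, 33.0 and 30.5 CPM in the Mael-/- libraries. Rpl10 RNA measured 113, 170 and 149 CPM and 147, 162 and 173 CPM. Per kilobase of mRNA the means over the 6 libraries were 35.8 CPM for Rpl10l and 192 CPM for Rpl10, so the main form led in RNA in all 6 extracts.

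In footprints the order was the opposite. Rpl10l had 90.7, 55.0 and 56.0 CPM in Mael+/- and 42.8, 51.3 and 40.9 CPM in Mael-/-, and Rpl10 had 4 to 11 counts per library, 0.424 to 1.31 CPM. Per kilobase of coding sequence the means were 87.0 and 1.27 CPM. The log2 ratio of paralog to main form was higher in footprints than in RNA by 8.16 ± 0.51 (SD, n = 6 extracts), and in 6 of 6 extracts. No coding window of Rpl10 was found once, against 59.9% for Rpl10l.

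Rpl39l, a short protein of the exit tunnel rim, had RNA levels of 71.8, 48.0 and 55.8 CPM in Mael+/- and 43.9, 51.1 and 50.9 CPM in Mael-/-, against 71.5 to 91.4 CPM for Rpl39. Its footprints measured 108, 53.5 and 66.1 CPM in Mael+/- and 55.0, 46.9 and 57.7 CPM in Mael-/-. Rpl39 had 10 footprint counts in all, 0 to 4 per library, with 0% of its windows found once against 85.8% for Rpl39l. The ratio of paralog to main form was higher in footprints by 9.18 ± 1.26 on the log2 scale (SD, n = 6), a value that leans on the added 0.5 counts where Rpl39 was near 0.

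The other pairs, whose paralogs are not restricted to germ cells, moved the same way. Rpl36al had 29.5 to 40.5 CPM in RNA and 16.8 to 29.6 CPM in footprints, and Rpl36a 119 to 176 CPM and 0.599 to 1.27 CPM, a shift of 6.83 ± 0.65 (SD, n = 6). Rpl36al had 9.93% of windows found once and Rpl36a 0%. Rpl3l had 0.743 to 2.16 CPM in RNA and 1.097 to 2.72 CPM in footprints, and Rpl3 425 to 587 CPM and 34.8 to 47.9 CPM, a shift of 4.07 ± 0.25 (SD, n = 6).

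For Rps27l, a paralog of Rps27 induced by p53, RNA ran from 108 to 149 CPM and footprints from 55.7 to 89.7 CPM. Since Rps27 had no footprint in any library, the footprint ratio is a lower bound. Rps27l was at least 162-fold to 282-fold higher in footprints across the libraries, set against 3 counts per library, and the shift relative to RNA was at least 1.201 on the log2 scale on average. In all 5 pairs the shift was positive in 6 of 6 extracts. The two-sided exact sign-flip test over 6 extracts gave p = 0.03125 for each pair, also after Benjamini-Hochberg adjustment over the 5, which is the smallest it can give. In every pair the main form had a smaller share of windows found once, at 0% for Rpl10, Rpl39, Rpl36a and Rps27 and 2.54% for Rpl3. The test cannot tell this difference in sequence apart from a difference in translation.

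**Figure D3:**
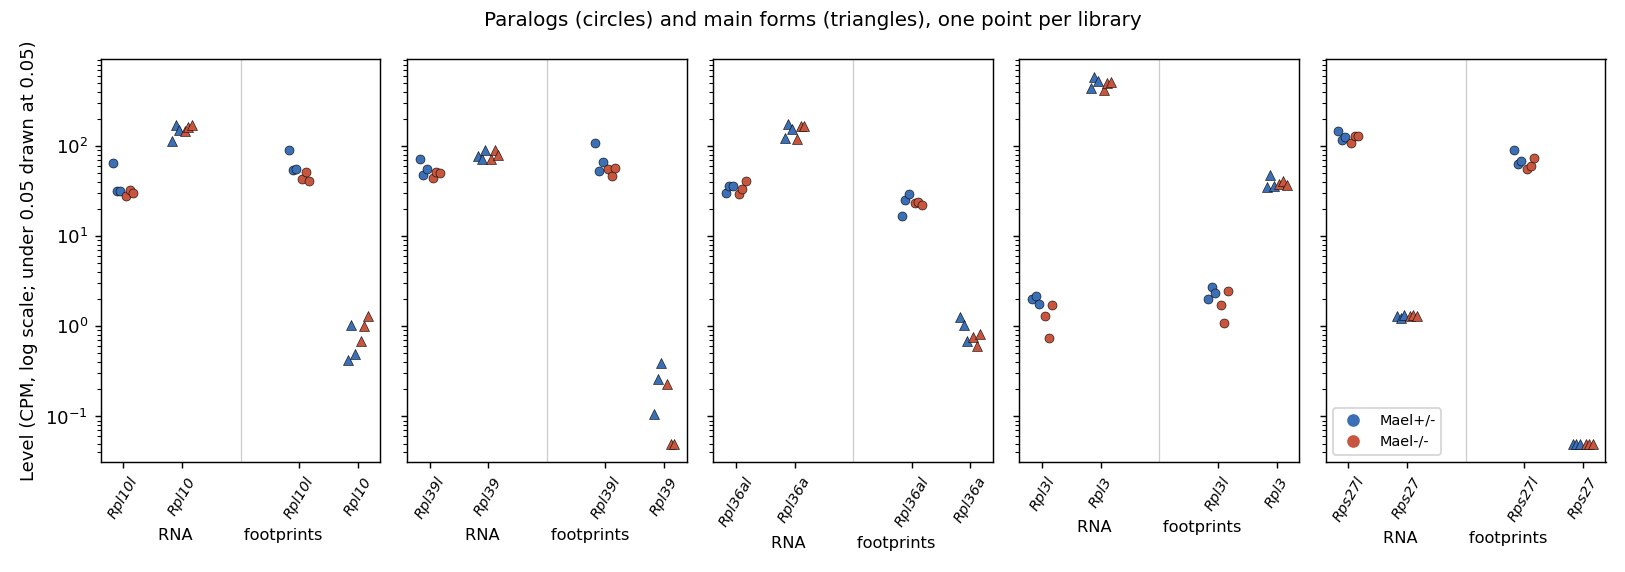
Level of each paralog (circles) and main form (triangles) in RNA and in footprints (y axis, CPM, log scale, values under 0.05 drawn at 0.05), 1 point per library, in Mael+/- (blue) and Mael-/- (red). Main forms lie above their paralogs in RNA except Rps27, and lie below them in footprints except Rpl3.

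Between genotypes, no ribosomal protein gene passed the test in RNA. Of 79 genes tested, edgeR called 0, where it called 0.116% of 14685 genes. None of the 79 had an unadjusted p under 0.05 (5.40% of all genes), and DESeq2 also called 0. The log2 difference of Mael-/- against Mael+/- was below 0 in 55 genes and above 0 in 24, against 50.4% of all genes below 0. The median was -0.03, smaller than the spread between libraries, whose medians relative to the mean of the assay were -0.07, 0.13 and 0.01 in Mael+/- and -0.21, 0.05 and 0.08 in Mael-/-. Without Mael-/- RNA replicate 1, the lowest of these, the median became 0.05, and without Mael+/- RNA replicate 2, the highest, 0.01.

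In footprints, 62 genes were tested and edgeR called 0, where it called 0.0593% of 13500 genes, and DESeq2 called 0. At an unadjusted p under 0.05 there were 9 of the 62 in edgeR and 8 in DESeq2, against 4.33% of all genes in edgeR. The log2 difference was below 0 in 52 genes (52.5% of all genes), with a median of -0.10. The library medians were 0.09, 0.03 and 0.05 in Mael+/- and -0.12, -0.03 and -0.02 in Mael-/-, so the groups did not overlap, with a pooled SD of 0.04 within genotypes. The pachytene markers were also lower in Mael-/- footprints, in 10 of 11 tested, and their part in the shift was not tested.

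**Figure D4:**
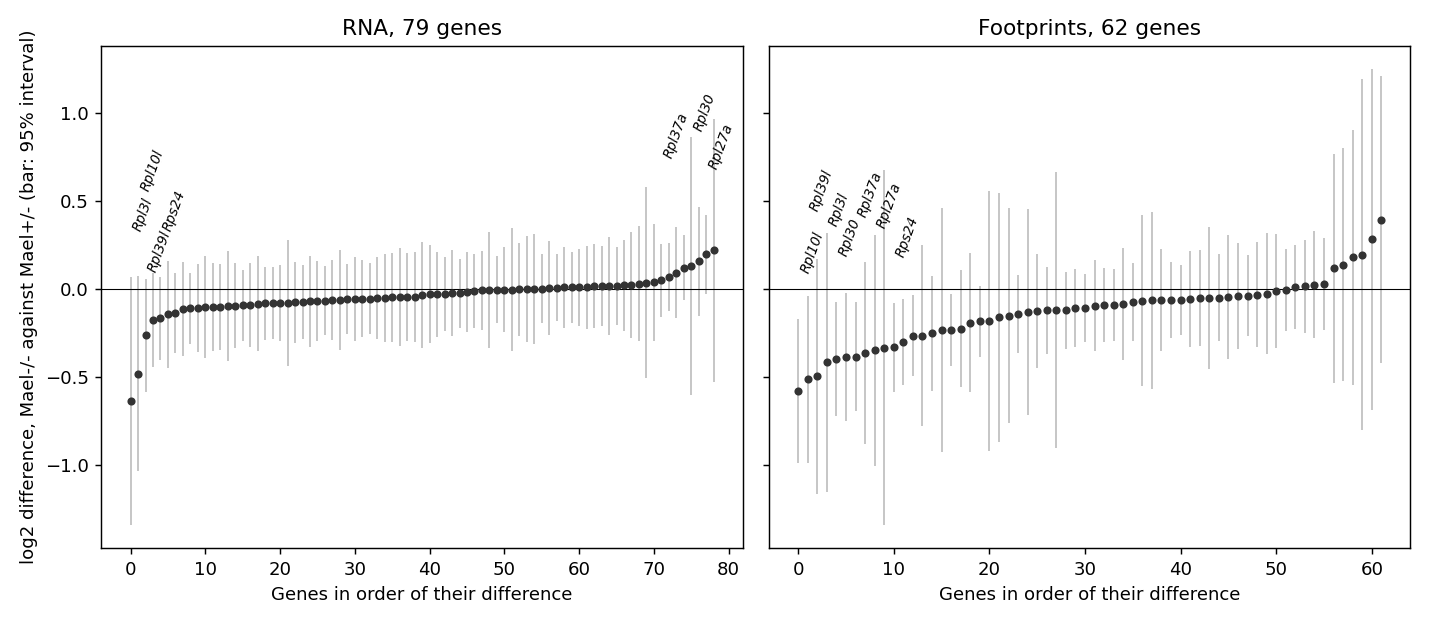
Log2 difference of Mael-/- against Mael+/- (y axis, bars: 95% interval) for each ribosomal protein gene tested, in order of size (x axis), in RNA (left, 79 genes) and footprints (right, 62 genes). None passed the adjusted threshold, 55 RNA and 52 footprint values lie below 0, and Rpl10l, Rpl39l and Rpl3l are among the lowest in both.

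The paralogs gave the largest differences among the 5 genes of smallest unadjusted p. In RNA these were Rpl3l (log2 difference -0.64, SE 0.32), Rpl27a (0.20, SE 0.10), Rpl10l (-0.48, SE 0.25), Rpl39l (-0.26, SE 0.14) and Rps24 (-0.17, SE 0.11), with edgeR's adjusted p from 0.939 to 0.982. In footprints they were Rpl10l (-0.58, SE 0.19), Rps24 (-0.33, SE 0.11), Rpl37a (-0.39, SE 0.14), Rpl14 (-0.30, SE 0.11) and Rpl30 (-0.40, SE 0.15), with adjusted p from 0.966 to 0.998. Rps24 footprints measured 122, 100.1 and 115 CPM in Mael+/- and 101, 85.3 and 81.4 CPM in Mael-/-, so the groups overlapped. Rpl37a footprints measured 13.4, 14.6 and 14.9 CPM in Mael+/- and 11.7, 10.8 and 10.2 CPM in Mael-/-, without overlap.

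The difference in Rpl10l rested on 1 extract in RNA. Mael+/- extract 1 had the highest Rpl10l and Rpl39l of all extracts in both assays, and it was the extract with the high pachytene marker sums given above. Its Rpl10l and Rpl39l together made up 0.565% of the RNA counts of the 80 genes, against 0.292% to 0.345% in the other 5 extracts, and 3.28% of their footprint counts, against 1.70% to 2.10%. The X-linked main forms went the other way in that extract. Their summed RNA was 473 CPM in it, against 661 and 612 CPM in the other Mael+/- extracts and 521 to 645 CPM in the Mael-/- extracts. The part of the pachytene markers in these values was not tested.

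Without Mael+/- replicate 1, the Rpl10l difference was -0.06 in RNA (unadjusted p = 0.599) and -0.30 in footprints (unadjusted p = 0.0219, edgeR, adjusted p = 0.705). The Rpl39l difference was then -0.09 in RNA and -0.18 in footprints. With all libraries, Rpl39l footprints differed by -0.52 (SE 0.21, adjusted p = 0.998). None of the X-linked main forms passed the test between genotypes in RNA. Their log2 differences were 0.16 for Rpl10 (95% interval -0.15 to 0.47), 0.00 for Rpl39 (-0.26 to 0.27), 0.00 for Rpl36a (-0.35 to 0.35) and 0.04 for Rps4x (-0.30 to 0.37).

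**Figure D5:**
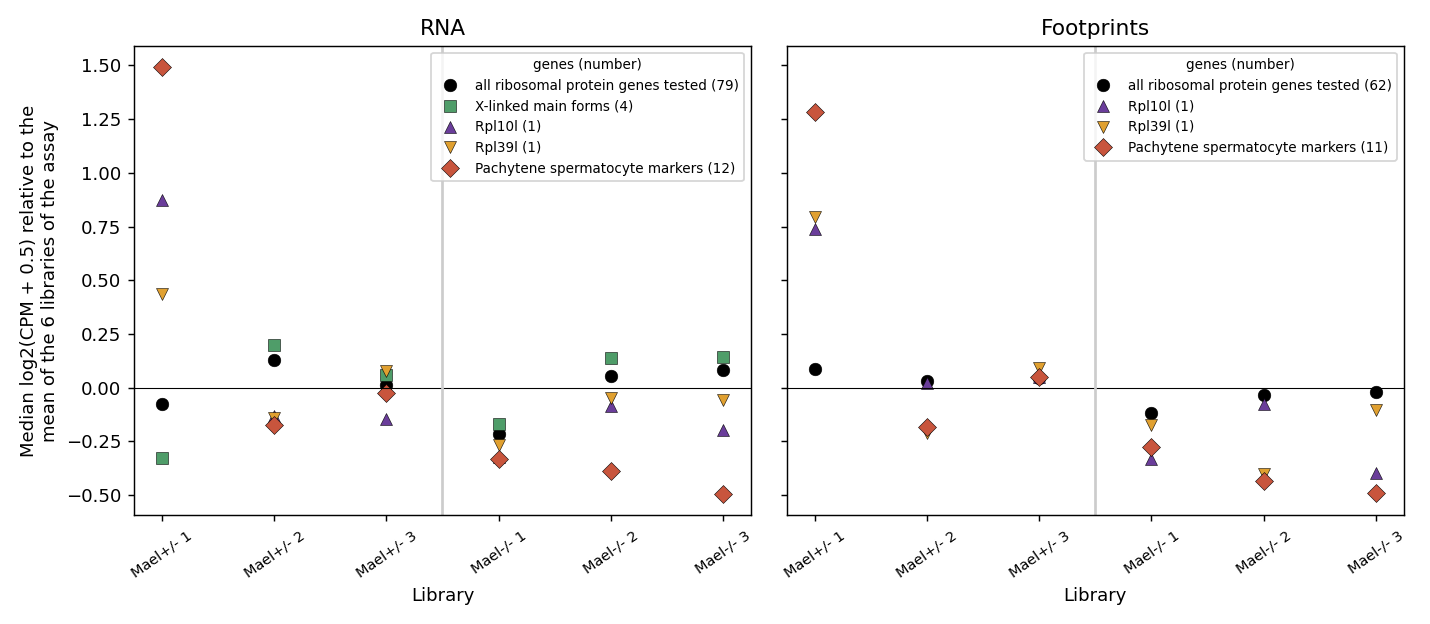
Level in each library as log2(CPM + 0.5) relative to the mean of the 6 libraries of the assay (y axis), for Rpl10l, Rpl39l, the median of the ribosomal protein genes, of the X-linked main forms (RNA only) and of the pachytene markers. In Mael+/- extract 1 the pachytene markers (1.49 in RNA and 1.28 in footprints), Rpl10l and Rpl39l are high, and the X-linked main forms are lowest, at -0.33.

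The ratio of paralog to main form did not pass a test between genotypes in any pair. For Rpl10l and Rpl10 in RNA the log2 ratio was -1.82 ± 0.88 in Mael+/- and -2.40 ± 0.10 in Mael-/- (SD, n = 3 each), a difference of -0.58 (two-sided exact permutation p = 0.3, adjusted p = 0.6). For Rpl39l and Rpl39 it was -0.47 ± 0.33 and -0.72 ± 0.10, a difference of -0.25 (exact permutation p = 0.3, adjusted p = 0.6). Over the 10 tests of 5 pairs in both assays the unadjusted p ran from 0.1 upward, and 3 libraries against 3 cannot go below 0.1.

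Translation efficiency, the footprint level set against the RNA level, was compared between genotypes in 61 genes. edgeR called 0 of them, as it called 0% of all 13448 genes, and DESeq2 called 0. At an unadjusted p under 0.05 there was 1 gene in each, against 0.394% of all genes in edgeR. The values were below 0 in 43 of the 61 (50.8% of all genes), with a median of -0.08. The lone gene was Rpl37a, a zinc-binding protein of the large subunit, at -0.43 (SE 0.14, unadjusted p = 0.00859, adjusted p = 0.9999, edgeR). The next smallest p-values belonged to Rpl27a (-0.55, SE 0.25), Rps25 (-0.38, SE 0.21), Rps18 (-0.32, SE 0.18) and Rpl30 (-0.52, SE 0.31). Rpl27a had 14 to 17 footprint counts per library.

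By subunit the genotype differences were alike. Medians were -0.06 for 49 large and -0.02 for 30 small subunit genes in RNA, and -0.10 for both in footprints. A list of 17 ribosomal proteins recovered with ORF1p, the RNA-binding protein of the LINE-1 retrotransposon, had a median of -0.03 in RNA and -0.07 in footprints, with 0 called in either by edgeR or DESeq2, and 0 and 2 at an unadjusted p under 0.05 in edgeR. Mass spectrometry rather than these libraries chose that list. Other mRNAs with a terminal oligopyrimidine tract were below 0 in 15 of 17 in RNA and 16 of 17 in footprints (medians -0.07 and -0.09), with 0 called by both tools, and 2 and 1 at an unadjusted p under 0.05 in edgeR. The 35 ribosome assembly factors had medians of 0.02 and 0.00, and the mitochondrial ribosomal protein genes 0.00 and -0.02, also with 0 called in edgeR and 2 to 3 genes of each list at an unadjusted p under 0.05. DESeq2 called 1 assembly factor in RNA and 0 of these genes otherwise. It was Polr1b, a subunit of RNA polymerase I, named here after its values were seen, at 0.42 (SE 0.10, adjusted p = 0.453 in edgeR and 0.0434 in DESeq2).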

How the data were processed

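RNA and ribosome footprints (28 to 34 bases, micrococcal nuclease) were sequenced as 75-base reads. Per the study's methods, RNA libraries were depleted of ribosomal RNA with Ribo-Zero, and ribosomal DNA reads were removed from the footprints with Bowtie 1.2.2. Both assays were aligned to mm10 with STAR 2.6.0c. Reads were counted with featureCounts (Subread 1.6.4), over whole mRNA for RNA and coding sequence for footprints. The deposited values are raw counts per gene. How reads matching several places were handled for these libraries, and whether duplicates were collapsed, is not given in the sources used here. The authors' deposited DESeq2 results (fold changes and p-values) were not used.

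Counts were tested with edgeR 4.0.16 (R 4.3.3), quasi-likelihood F-tests, TMM within each assay (over all 12 libraries for footprints against RNA), its default filter and Benjamini-Hochberg adjustment over all genes, at 0.05, and with DESeq2 1.42.0 as an alternative. Tests were checked on simulated counts. Window counts used exact matches on both strands of the GRCm38.p6 chromosomes. Windows were 30 coding or 75 mRNA bases of 1 RefSeq transcript per gene. Levels are TMM-scaled CPM. Paralog ratios used counts plus 0.5. Shares and floors of 3 counts cover counting error only, and replicates may differ technically, since the labels do not name separate animals.

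The assays were paired by extract because the study's methods describe aliquots of the same extracts. Over 13448 genes, RNA and footprints of 1 extract deviated together with r from 0.63 to 0.78 in Mael+/- and from 0.25 to 0.26 in Mael-/-. Same-numbered libraries of different genotype had r from -0.02 to 0.24, so this check set the pairing clearly apart only in Mael+/-. Genes and lists were chosen with earlier results of these data known. The genes named are the paralog pairs, X-linked forms, Rps6, Rpl28, the 5 of smallest p per genotype comparison, the 5 lowest and highest of footprints against RNA, the 5 most abundant per length, and ribosome genes outside the symbol rule. Rpl26, Rpl34, Rps29 and the genes named under unique windows and places in the ribosome were singled out after their values were seen. Some genes that these rules choose are not reported here. Rps4l, a listed paralog, had no row, so 5 pairs were compared.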

Additional observations from a re-analysis of the deposited data

How the results depend on the processing

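No alternative called a ribosomal protein gene between genotypes, in RNA, footprints or translation efficiency, with DESeq2, median-of-ratios size factors, scaling without the 80 genes, no filter, the replicate block or any library left out. Without a filter the median of footprints against RNA moved from -2.59 to -3.92, in Mael+/- to -3.77 and in Mael-/- to -4.04, since the genes with fewest footprints then entered. With 1 library left out at a time, the median difference between genotypes ran from -0.10 to 0.05 in RNA, from -0.11 to -0.08 in footprints and from -0.17 to -0.02 in translation efficiency. The genes called for footprints against RNA numbered 58 to 62, and 56 to 60 in Mael+/- and in Mael-/- alone, with medians from -2.73 to -2.55, -2.73 to -2.55 and -2.77 to -2.49. With the replicate block, medians were -0.04 in RNA and -0.10 in footprints, and with the extract as the pairing block -0.07 for translation efficiency and -2.59 for footprints against RNA, with 60 called (59 in each genotype). The block changed no call between genotypes.

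With 1 extract left out, the shift of paralog against main form ran from 8.01 to 8.32 for Rpl10l, 8.88 to 9.43 for Rpl39l, 6.69 to 7.06 for Rpl36al, 4.01 to 4.14 for Rpl3l and, with 0.5 counts added, 3.70 to 3.87 for Rps27l. The exact test over 5 extracts cannot go below p = 0.0625, so all 5 missed 0.05 by construction. Between genotypes, the pair differences ran with 1 library left out from -0.87 to -0.07 (RNA) and -1.66 to -0.70 (footprints) for Rpl10l, -0.38 to -0.07 and 0.78 to 1.90 for Rpl39l, -0.063 to 0.11 and -0.030 to 0.81 for Rpl36al, -0.81 to -0.24 and -0.75 to -0.10 for Rpl3l, and -0.20 to -0.06 and -0.25 to 0.16 for Rps27l. The Mael difference in translation efficiency ran from -2.19 to 3.60, with 0 to 2 RNA counts per Mael-/- library. The 32 ribosomal protein genes with no coding window found once had a median footprint level of 0.894 CPM, and the cause of this level was not tested.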
